A study of Mus musculus with 13 samples.

Results

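The regions described here are the open chromatin regions near 48 mouse genes that encode axon guidance ligands and receptors: Slit1, Slit2 and Slit3 with Robo1, Robo2 and Robo3, the netrins Ntn1 and Ntn4 with their receptors Dcc and Unc5a to Unc5d, 9 EphA and 5 EphB receptors, 7 ephrins, 5 class 3 semaphorins, and 2 neuropilins with 7 plexins. A region belonged to the set when its strongest summit, by -log10 q and then by fold, lay within 50 kb of the body of 1 of these genes in the GENCODE M21 annotation of mm10 (GRCm38), and it was given to the nearest of the 48 genes. By this rule 12993 of the 1292424 unique regions in the 13 deposited libraries were members. After overlapping regions among the 50000 strongest of each of 12 libraries were merged, 1195 of 111905 consensus regions were members, and all 48 genes had at least 4.

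Growing axons find their way by reading ligands in the tissue they cross. Slits are secreted and repel axons that carry Robo receptors, and netrins attract through Dcc and repel through Unc5 receptors. Ephrins and Eph receptors are both held on cell membranes and signal when cells touch. Class 3 semaphorins are secreted and bind neuropilins, whose signal the plexins carry into the cell. The same families are used outside the nervous system, in blood vessels and in the mesenchyme of the limb bud, where EphA4 in the limb steers motor axons and Eph and ephrin genes mark boundaries between groups of mesenchymal cells.

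The assay was ATAC-seq, in which the Tn5 transposase cuts accessible DNA. Cells came from the distal forelimb (DFL, the future hand), the proximal forelimb (PFL) and the forebrain (FB) of mouse embryos at E12.5 of the B6CBAF1 strain. Embryos were either wild type (wt) or homozygous for allele 542, a single-copy transgene with the II1 enhancer of the HoxD locus, an HBB promoter and LacZ, recombined into the regulatory domain on the other side of the HoxD genes (T-DOM). Both kinds of embryo were obtained from crosses of heterozygous adults and received no treatment. Allele 542 is 1 founder line, so a difference between genotypes is one between this line and wt.

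Each of the 6 groups had 2 libraries of 50000 cells, each from tissue pooled from several embryos of different litters. The wt libraries were mapped on mm10 and the 542 libraries on the mutant genome, so genotype and mapping cannot be told apart. A 13th library, an earlier wt DFL sample that the submitters analysed anew, was kept out of the groups and is used only where it is named. Values by library are given throughout in the order wt replicate 1, wt replicate 2, 542 replicate 1 and 542 replicate 2.

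The unit of strength is the fold that the peak caller wrote for each region, the reads at the summit over the local background of the same library. The 12 libraries held 80983 to 112746 regions on the chromosomes used, at an estimated 37.5 to 70.7 M tags. The limb libraries had 37.5 to 54.5 M and the FB libraries 51.4 to 70.7 M, and the median fold of the 50000 strongest regions was 6.37 to 7.25 in the limb and 7.51 to 8.02 in FB. A call below means that a region is among the 50000 strongest of a library, ranked by -log10 q and then by fold, so that lists of equal length are compared. Within a class, the strongest regions are those of highest mean fold in the libraries that define it. The forebrain markers went with the labels. The distal limb markers set the limb libraries apart from FB, while their counts in DFL and PFL overlapped. The proximal limb markers did not separate the tissues. The distal limb markers Hoxa13 and Hoxd13 had 18 to 24 regions in DFL, 15 to 19 in PFL and 5 to 9 in FB, and 4 forebrain markers had 27 to 31 in FB against 14 to 19 in the limb libraries. The 2 proximal limb markers used had 11 to 14 regions in DFL, 13 to 16 in PFL and 13 to 19 in FB. Muscle markers had 10 to 12 regions in DFL, 16 to 22 in PFL and 17 to 20 in FB, and blood markers 16 to 19, 12 to 15 and 16 to 18. In bulk tissue, fewer cells of a type and less accessibility per cell cannot be told apart.

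The tissue differences turned most often on regions far from the gene starts, and 7 of them are shown here because each was the strongest of its class, the strongest of its class near an Eph or ephrin gene, or among the largest differences in strength. Each line gives 200 bases of the GRCm38 plus strand around the summit, and capitals mark matches to the motifs searched, on either strand. The first is 324 kb past the Epha3 start, downstream of the gene at chr16:63539650-63539849, and was the strongest called in DFL and not in PFL. The next, inside the neighbouring gene Bmpr1b downstream of Unc5c at chr3:141857181-141857380, was the strongest called in PFL and not in DFL, and the Efna5 region downstream of the gene at chr17:62568073-62568272 was the strongest of that class near an Eph or ephrin gene. The Epha7 region upstream of the gene (-29.0 kb from its start) at chr4:28784002-28784201 and the Unc5c region in an intron at chr3:141509796-141509995 had the largest excess in the limb. The Nrp1 region downstream of the gene at chr8:128529023-128529222 and the Epha3 region in an intron at chr16:63806592-63806791 were called in FB and not in the limb, the first as the strongest and the second as the strongest near an Eph or ephrin gene. Names such as Epha3_3 give the gene and the number of the region along the chromosome among the regions of that gene.
Epha3_3, DFL: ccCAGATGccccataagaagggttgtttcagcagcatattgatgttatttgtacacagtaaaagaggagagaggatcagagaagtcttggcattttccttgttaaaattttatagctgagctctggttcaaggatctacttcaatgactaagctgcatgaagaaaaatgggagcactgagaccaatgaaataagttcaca
Unc5c_44, PFL: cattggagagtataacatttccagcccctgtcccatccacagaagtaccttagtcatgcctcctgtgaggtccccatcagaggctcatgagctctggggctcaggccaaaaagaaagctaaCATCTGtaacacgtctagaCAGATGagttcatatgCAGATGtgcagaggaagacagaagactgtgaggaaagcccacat
Efna5_1, PFL: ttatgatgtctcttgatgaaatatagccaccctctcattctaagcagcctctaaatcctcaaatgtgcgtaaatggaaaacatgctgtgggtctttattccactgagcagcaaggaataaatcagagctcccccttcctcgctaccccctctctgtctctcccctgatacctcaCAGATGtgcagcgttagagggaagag
Epha7_1, limb: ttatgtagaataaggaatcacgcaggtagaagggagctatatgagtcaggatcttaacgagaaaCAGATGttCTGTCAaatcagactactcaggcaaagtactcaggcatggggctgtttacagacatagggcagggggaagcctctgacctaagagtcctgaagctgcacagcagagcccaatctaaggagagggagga
Unc5c_7, limb: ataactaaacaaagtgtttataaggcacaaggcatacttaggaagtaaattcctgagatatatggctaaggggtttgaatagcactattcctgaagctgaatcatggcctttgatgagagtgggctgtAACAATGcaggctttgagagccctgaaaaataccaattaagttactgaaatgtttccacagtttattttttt
Nrp1_22, FB: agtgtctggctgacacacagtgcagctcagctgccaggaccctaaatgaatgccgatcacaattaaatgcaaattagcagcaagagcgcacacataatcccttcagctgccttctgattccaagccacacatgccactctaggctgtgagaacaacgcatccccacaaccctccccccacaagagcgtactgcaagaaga
Epha3_33, FB: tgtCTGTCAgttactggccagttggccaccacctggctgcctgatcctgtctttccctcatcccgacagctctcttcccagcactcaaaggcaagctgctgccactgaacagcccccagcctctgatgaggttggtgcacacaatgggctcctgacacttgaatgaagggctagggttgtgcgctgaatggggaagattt

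Across all 48 genes, the forebrain had more of these regions than the limb. Member regions made up 535 to 554 of the 50000 strongest in the FB libraries, 457 to 476 in DFL and 444 to 471 in PFL, so that every FB library was above every limb library while DFL and PFL overlapped. In the consensus, 159 of 1195 member regions (13.31%) were called in all 4 FB libraries and no limb library, against 8.74% of all 111905 regions. Regions called in all 8 limb libraries and no FB library were 62 of 1195 (5.188%), near the 4.77% of all regions. Only 130 (10.88%) were called in all 12 libraries, against 16.9% of all regions. The deeper FB libraries go with the FB class, and the part of depth in it was not tested.

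The distal and proximal forelimb differed at few of these regions. DFL and not PFL held 23 (1.925%), against 2.51% of all regions, and PFL and not DFL held 22 (1.841%), against 2.05%. Both shares are at or under the background, so the set as a whole did not stand apart between the limb segments. Of the 23 DFL regions, 20 were called in no FB library and 2 in all 4, and 17 were deposited at a lower rank in at least 1 PFL library. Of the 22 PFL regions, 18 were called in no FB library and 2 in all 4, and 15 were deposited at a lower rank in at least 1 DFL library. A region of these classes was thus often weaker, and not absent, in the other segment.

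The earlier wt DFL library, which took no part in the classes, gave a check on them. Its 50000 strongest regions held 17 of the 23 DFL regions, 2 of the 22 PFL regions, 61 of the 62 limb regions and 1 of the 159 FB regions. At any rank it held all 23 DFL regions, 15 of the 22 PFL regions, all 62 limb regions and 30 of the 159 FB regions.

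**Figure D1:**
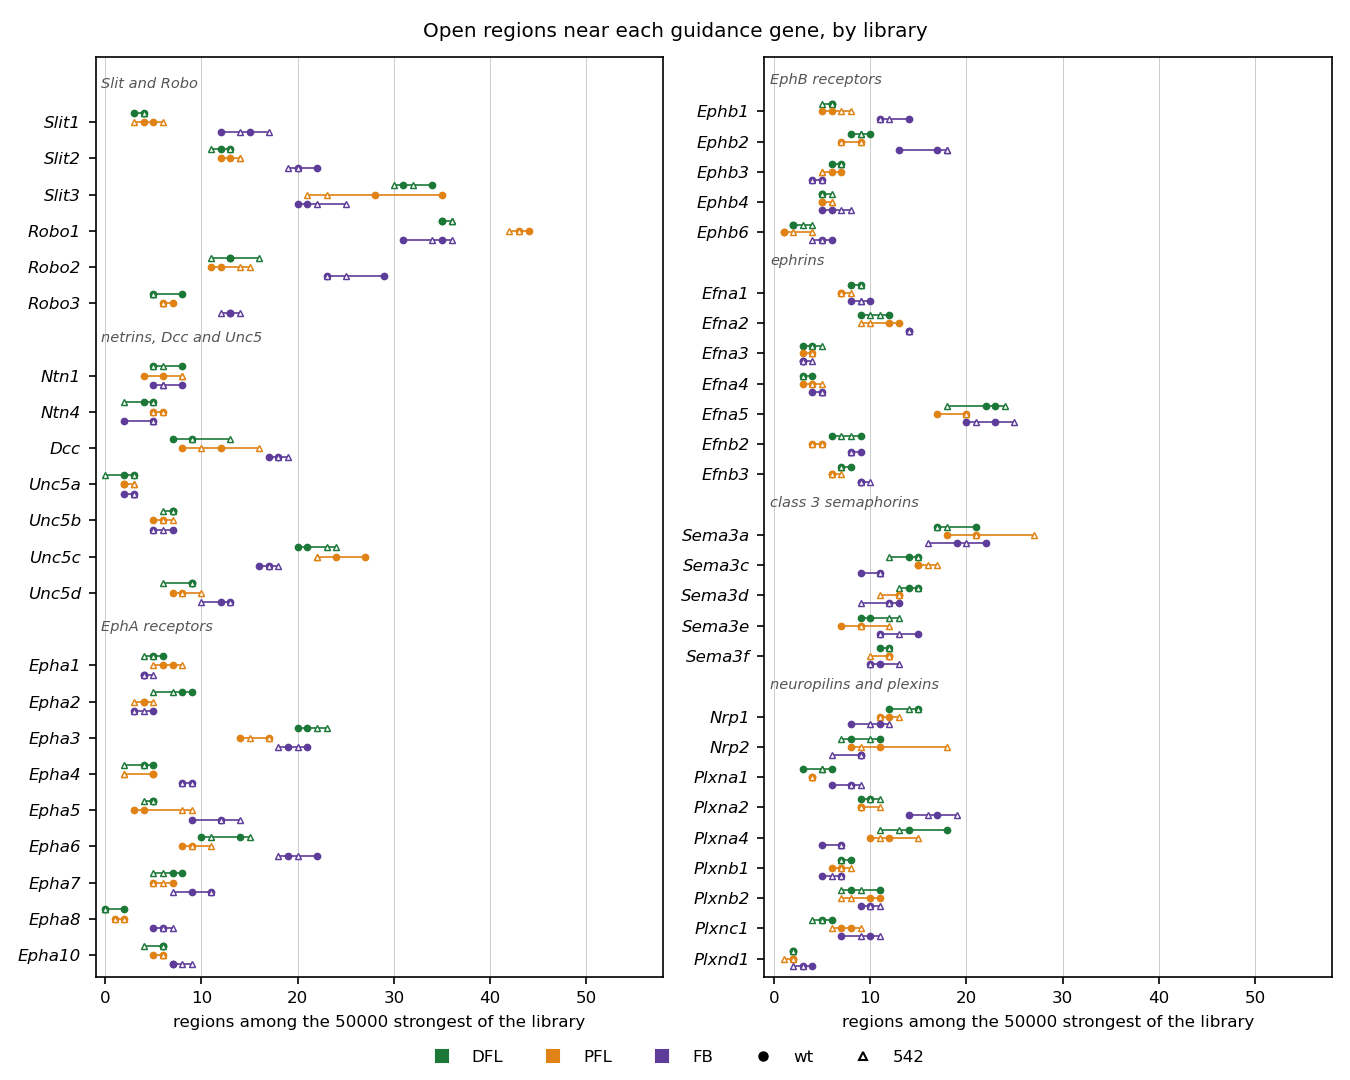
Number of regions near each of the 48 genes among the 50000 strongest of a library (horizontal axis), by family, with 1 point per library and a line over the range of the 4 libraries of a tissue. Filled circles are wt and open triangles are 542. The FB points lie to the right of every limb point for 14 genes, among them Slit1, Robo2, Epha6 and Ephb2.

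Counted by gene, 14 of 48 (29.17%) had more regions in every FB library than in any limb library, against 7.59% of 18730 protein-coding genes with a region and 8.267% of the 15846 genes with at least 4 consensus regions. These 14 were Slit1, Slit2, Robo2, Robo3, Dcc, Epha4, Epha6, Epha8, Epha10, Ephb1, Ephb2, Efna2, Efnb3 and Plxna2, and the same 14 were found when a region could count for each gene near it. The opposite order, more in every limb library, held for 3 genes (Unc5c, Sema3c and Plxna4), at 6.25% against 6.30% of all genes. More regions in every DFL than in every PFL library held for Epha3 and Efnb2 (4.167% against 2.90%), and the reverse for Robo1 alone (2.083% against 3.0%). The DFL count was 4 without wt DFL replicate 1, and 5 without 542 DFL replicate 2 or without 542 PFL replicate 1. The PFL count was 3 without wt DFL replicate 1, and 2 without wt DFL replicate 2 or without 542 PFL replicate 1.

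Among the Slits, secreted repellents, Slit1 had the widest gap between forebrain and limb. Its regions numbered 15, 12, 14 and 17 in FB, 4, 3, 4 and 4 in DFL, and 5, 4, 6 and 3 in PFL. The FB mean was 14.5 ± 2.08 (SD, n = 4) against 4.13 ± 0.991 in the limb (SD, n = 8), with no overlap. Slit2 had 20, 22, 19 and 20 regions in FB and 11 to 14 in every limb library. Slit3 went the other way without parting the tissues fully, with 31, 34, 30 and 32 in DFL, 28, 35, 23 and 21 in PFL, against 21, 20, 25 and 22 in FB. In PFL the wt libraries had more Slit3 regions than the 542 libraries, while in FB they had fewer.

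Robo1, a Slit receptor encoded by a very long gene, had the most consensus regions of any member (99). It was the gene with more regions in PFL, against 44, 43, 43 and 42 there, 35, 35, 36 and 36 in DFL, and 31, 35, 36 and 34 in FB. Robo2, its paralog, had 23, 29, 23 and 25 regions in FB, 13, 13, 11 and 16 in DFL and 11, 12, 14 and 15 in PFL. Robo3, known for its role in axons that cross the midline, had 13, 13, 14 and 12 in FB and 5 to 8 in the limb. Of the 313 Slit and Robo regions, 46 (14.7%) were of the FB class, 18 (5.75%) of the limb class, 9 (2.88%) of the PFL class and 4 (1.28%) of the DFL class. The shares among all regions were 8.74%, 4.77%, 2.05% and 2.51%. Robo1 led the FB class (16 regions), the limb class (11) and the PFL class (5), and Robo2 was next in FB with 13.

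Dcc, the attractive netrin receptor, had 17, 18, 18 and 19 regions in FB, 9, 7, 13 and 9 in DFL, and 8, 12, 16 and 10 in PFL, so that the highest limb library stood just under the lowest FB library. Its gene is long too, and it had 9 regions of the FB class, 3 of the PFL class and 2 of the DFL class. Unc5c, a repulsive netrin receptor, had more in the limb, with 20, 21, 24 and 23 in DFL, 24, 27, 22 and 22 in PFL, against 17, 16, 18 and 17 in FB. The netrins themselves did not part the tissues, with a mean of 6.25 ± 1.58 regions in the limb (SD, n = 8) and 6.25 ± 1.26 in FB (SD, n = 4) for Ntn1. Ntn4 had 2 to 6 regions in every library. Unc5a and Unc5b had no region of any tissue class, and Unc5d had means of 8.25 ± 1.28 in the limb and 12.0 ± 1.41 in FB, with library ranges that touched at 10.

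The EphA receptors held the largest family share of the FB class, 34 of 186 regions (18.3%, against 8.74% of all regions). Their share of the DFL class was also the largest of the families, but from few regions, 7 (3.76% against 2.51%). In the PFL class they had 1 (0.538% against 2.05%). The 7 DFL regions lay near several genes, 2 each near Epha3, Epha5 and Epha6 among them. Epha3 had 20, 21, 22 and 23 regions in DFL, 17, 14, 17 and 15 in PFL, against 21, 19, 18 and 20 in FB. Every DFL library was above every PFL library, while DFL and FB overlapped. Epha6 had 19, 22, 20 and 18 in FB, 10, 14, 15 and 11 in DFL and 8, 9, 11 and 9 in PFL, and 10 of its regions were of the FB class. Epha4, the receptor known for motor axon guidance in the limb, had 9, 8, 9 and 8 in FB, 5, 4, 2 and 4 in DFL and 5, 5, 2 and 2 in PFL. Epha8 had few called regions in the limb, 2, 0, 0 and 0 in DFL and 2, 1, 2 and 1 in PFL. It had 6, 5, 7 and 6 in FB. Deposited at any rank near Epha8 were 7, 4, 4 and 4 in DFL and 7, 5, 5 and 3 in PFL. In FB 10, 10, 14 and 12 were deposited, so its limb regions were often low in rank and not absent. Epha10 had 7 to 9 in FB and 4 to 6 in the limb. Epha5 and Epha7 had higher means in FB, 11.8 ± 2.06 and 9.50 ± 1.91, than in the limb, 5.38 ± 2.07 and 6.13 ± 1.13, but their library ranges met or overlapped. Epha1 and Epha2 had the lowest means of the family in FB, at 4.25 ± 0.500 and 3.75 ± 0.957.

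Of the EphB receptors, Ephb1 had 14, 11, 11 and 12 regions in FB against 5 to 8 in the limb, and Ephb2 had 17, 13, 18 and 18 against 7 to 10. Both ranges were apart. Ephb3, Ephb4 and Ephb6 had 1 to 8 in every library. The family had 13 of 76 regions in the FB class (17.1%, against 8.74% of all regions) and 3 in the limb class (3.95% against 4.77%). It had 1 in the DFL class (1.32% against 2.51%) and none in the PFL class (against 2.05%).

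The ephrins, the ligands of the Eph receptors, had 15 of 120 regions in the FB class and 32 called in all 12 libraries (26.7%), the largest such count of any family. Efnb2, a transmembrane ephrin also known from arteries, had 9, 6, 8 and 7 regions in DFL, 4, 5, 4 and 5 in PFL, against 9, 8, 8 and 8 in FB. DFL and PFL did not overlap, by a margin of 1 region. Efna2 had exactly 14 in each FB library and 9 to 13 in the limb, and Efnb3 had 9 to 10 in FB and 6 to 8 in the limb. Efna5 had the most regions of the family, with 17 to 25 in every library and overlapping tissues, but 5 of its regions were of the limb class. Efna1, Efna3 and Efna4 ranged from 3 to 10 regions. Efna3 and Efna4 had none of a tissue class.

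The class 3 semaphorins were the family with the largest limb share, 16 of 164 regions (9.76%, against 4.77% of all regions). Sema3c, which is also known for its role in the outflow tract of the heart, had 14, 15, 12 and 15 in DFL, 15, 15, 16 and 17 in PFL, against 9, 11, 11 and 11 in FB, and 6 of its 25 consensus regions were of the limb class. Sema3a, the first known vertebrate semaphorin, had 16 to 27 regions with overlapping tissues, and 4 of the limb class and 2 of the PFL class. Sema3d, Sema3e and Sema3f had 7 to 15 regions in every library, and none of the 3 parted the tissues. The neuropilins Nrp1 and Nrp2, the receptors that bind these ligands, had 6 to 18 regions, again overlapping.

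Among the plexins, Plxna4 and Plxna2 moved in opposite directions. Plxna4 had 14, 18, 13 and 11 regions in DFL, 12, 10, 15 and 11 in PFL, against 7, 5, 7 and 7 in FB. Plxna2 had 9 to 11 in every limb library and 14, 17, 16 and 19 in FB. Plxna1 and Plxnc1 had higher means in FB, 7.75 ± 1.26 and 9.25 ± 1.71, than in the limb, 4.38 ± 0.916 and 6.25 ± 1.67, and their library ranges met or overlapped. Plxnb1, Plxnb2 and Plxnd1 had 1 to 11 regions, and Plxnd1, the receptor of Sema3e, had the fewest consensus regions of all 48 genes (4). In all, 8 members had no region of a tissue class: Unc5a, Unc5b, Epha10, Ephb4, Efna3, Efna4, Plxnb2 and Plxnd1.

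**Figure D2:**
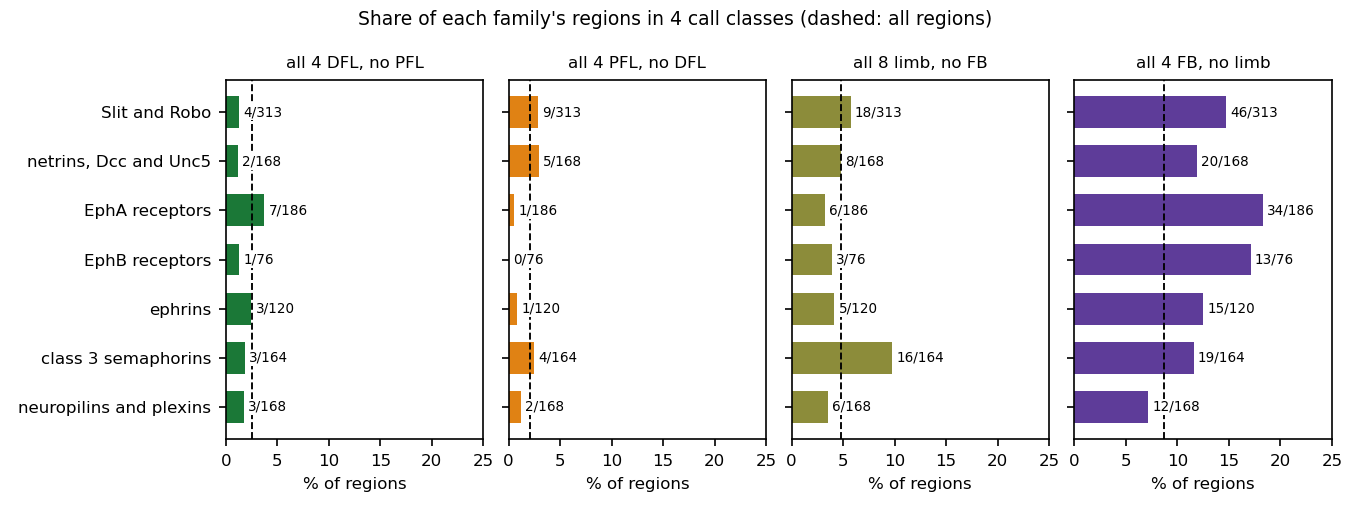
Share of the consensus regions of each family (percent, horizontal axis) that were called in all libraries of 1 side and none of the other, in 4 panels, with the count of regions at each bar. The dashed line is the share among all 111905 regions. The EphA bar reaches 18.3% in the FB panel and 3.76% in the DFL panel, and the class 3 semaphorins reach 9.76% in the limb panel.

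Of 31 other genes of these pathways, such as class 4 to 7 semaphorins, Neo1, Dscam and Robo4, 30 could be used, with 462 regions. They had 60 regions of the FB class (12.99%, against 8.74% of all regions) and 13 of the limb class (2.814% against 4.77%). The DFL class held 10 (2.165% against 2.51%) and the PFL class 6 (1.299% against 2.05%). In all 12 libraries 121 were called (26.19% against 16.9%).

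The regions of a class differed in how fully they were lost on the other side. Epha3_3 (chr16:63539450-63540390), the DFL region printed first above, had a fold of 8.99, 10.3, 9.70 and 11.2 in DFL and was deposited at no rank in PFL or FB. The Efna1 region Efna1_12, 10.3 kb upstream of this ephrin gene (chr3:89291078-89291834), had 7.51, 8.27, 8.99 and 8.09 in DFL and was deposited elsewhere in 1 PFL library only, at 3.20. Sema3a_7, in an intron (chr5:13144335-13145379), reached 6.19, 8.23, 11.5 and 9.75 in DFL, with 2.82 and 3.20 in the 2 542 PFL libraries and 2.98 in 1 FB library. Epha6_4 (chr16:59626306-59627208) lay past the end of Epha6 inside the gene Arl6, with 10.1, 8.00, 8.48 and 7.24 in DFL, none in PFL, and 3.27 and 3.42 in 2 FB libraries. These 4 were DFL regions with little or nothing elsewhere.

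Sema3d_14 was of another kind. This region, in an intron (chr5:12498175-12499356), had 8.09, 7.07, 11.4 and 11.8 in DFL and 8.43, 8.17, 8.23 and 7.14 in FB, against 3.88, 4.02, 3.77 and 3.47 in PFL. It was thus a region low in the proximal limb rather than one of the distal limb alone. Its difference between DFL and PFL was 1.24 on the centred log2 scale (SE 0.0786, limma adjusted p = 0.000882), the largest of the members that rose in DFL.

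In PFL the strongest was Unc5c_44 (chr3:141857004-141857741), with 10.9, 9.06, 6.34 and 8.65 there, 3.22 in 1 DFL library and none in FB. Robo1_23, in an intron (chr16:72484099-72485166), had 7.40, 6.69, 9.49 and 9.36 in PFL and 3.81 in 1 DFL library. Efna5_1 (chr17:62567640-62569185) had 6.76, 6.93, 10.3 and 7.59 in PFL and 3.78 in 1 DFL library, but also 7.01, 8.23, 4.18 and 4.77 in FB. Of the remaining pair, both in introns of Dcc, Dcc_37 had 7.40, 6.25, 8.53 and 9.12 in PFL and was deposited nowhere else, while Dcc_23 had 7.62, 9.65, 6.59 and 6.39 in PFL and 2.64 to 4.06 in all 4 DFL libraries. The muscle markers had 16 to 22 regions in PFL and 10 to 12 in DFL, but also 17 to 20 in FB. Of the 22 PFL regions, 18 were called in no FB library. The part of the muscle markers in the result was not tested.

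The strongest limb region lay upstream of Epha7, an EphA receptor of the limb mesenchyme and the brain. Epha7_1 (chr4:28783571-28784638) had 15.6, 15.8, 16.7 and 14.4 in DFL, 15.1, 12.4, 13.5 and 16.2 in PFL, against 3.27, 3.76, 2.79 and 4.001 in FB. The limb and FB libraries were far apart, and the difference of 2.30 on the centred log2 scale was the largest of the members (SE 0.119, limma adjusted p = 3.13e-06). Between DFL and PFL it was 0.07 (SE 0.138, limma adjusted p = 0.826).

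Sema3d_9, in an intron (chr5:12441631-12442921), had 12.48, 14.5, 13.5 and 13.5 in DFL and 11.1, 10.0, 10.5 and 11.7 in PFL, and was deposited in no FB library. With Sema3d_14, this gives 1 gene with a region of the whole limb and a region of the distal limb and forebrain. Unc5c held 3 of the 5 strongest limb regions, all in introns. Unc5c_7 (chr3:141509350-141510254) ranged from 9.92 to 13.1 over the 8 limb libraries and from 2.46 to 4.18 in FB, Unc5c_9 (chr3:141528347-141529258) from 8.77 to 12.9 with none in FB, and Unc5c_31 (chr3:141711457-141712376) from 8.02 in 542 PFL replicate 2 upward, with 2.41 and 2.79 in 2 FB libraries.

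The 5 strongest FB regions lay near Nrp1, Dcc, Epha5, Epha3 and Robo1. Nrp1_22 (chr8:128528404-128529494), downstream of the gene for this semaphorin receptor, had 14.9, 17.1, 16.3 and 15.2 in FB and 2.90 in 1 PFL library. Dcc_13, in a Dcc intron, had 17.0, 14.4, 14.3 and 14.3 in FB and Epha5_7 (chr5:84153015-84153626), in an Epha5 intron, 13.8, 14.3, 13.8 and 14.03. Epha3_33 (chr16:63806124-63807190), in an intron, had 13.6, 14.2, 15.2 and 14.7. These last 3 were deposited at no rank in any limb library. Robo1_86, in an intron (chr16:72958924-72960145), had 15.5, 14.6, 15.3 and 14.1 in FB and 2.26 and 3.56 in 2 PFL libraries.

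Epha3 therefore held the strongest DFL region and one of the strongest FB regions, with opposite patterns. Epha3_3 lies downstream of the gene and Epha3_33 in an intron. Over all classes, 70 of the 159 FB regions were deposited at a lower rank in at least 1 limb library, and 22 of the 62 limb regions in at least 1 FB library.

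**Figure D3:**
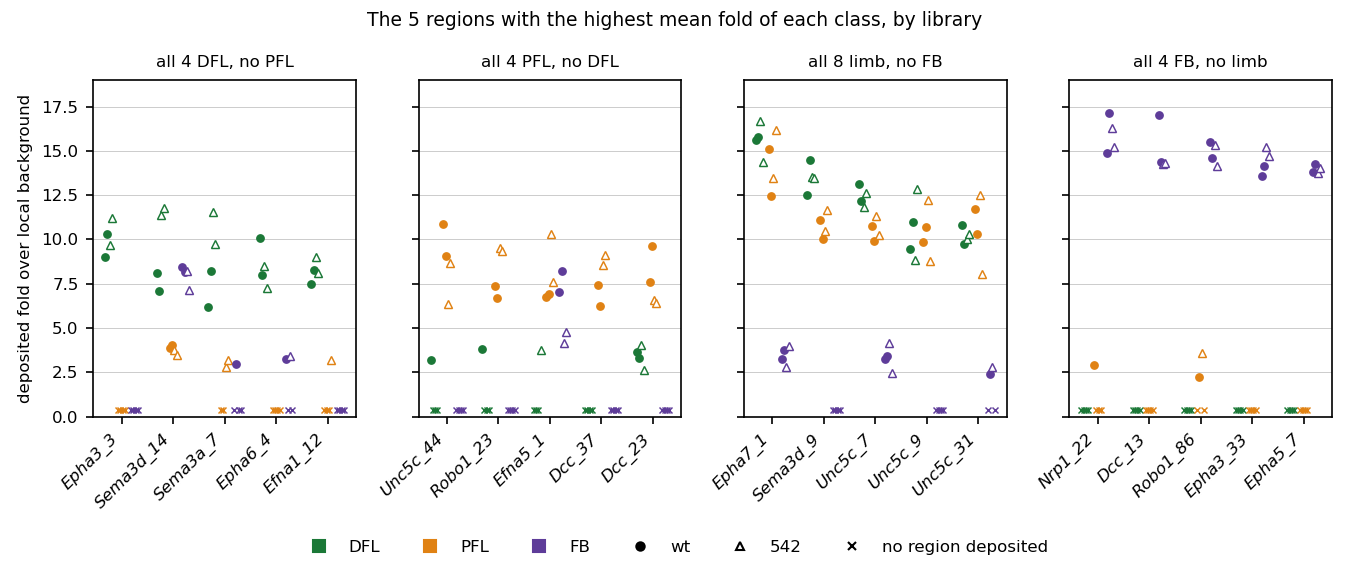
Deposited fold over local background (vertical axis) of the top 5 regions by mean fold in each of 4 classes, 1 point per library, with crosses at the foot where a library listed none. Filled circles are wt and open triangles are 542. Epha3_3 has points between 8.99 and 11.2 in DFL and crosses in PFL and FB, whereas Sema3d_14 and Efna5_1 are also high in FB.

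The tissue regions lay away from the gene starts. Of all 1195 member regions, 795 (66.53%) were in introns, 64 (5.356%) at promoters (within 1 kb of a protein-coding transcript start), 155 upstream and 156 downstream. In the limb class 52 of 62 were in introns, in the FB class 123 of 159, in the PFL class 18 of 22 and in the DFL class 15 of 23. Promoters made up 2 of the 159 FB regions and none of the other 3 tissue classes, but 45 of the 130 regions called in all 12 libraries (34.62%). The median distance to the gene start was 154 kb in the DFL class, 181 kb in the PFL class, 141 kb in the limb class and 123 kb in the FB class. It was 116 kb over all 1195 member regions and 18.5 kb for those called in all 12 libraries. The FB class was thus near the members as a whole, and the regions called everywhere lay closest to the starts. These positions and distances were not set against those of all regions. Whether they are particular to guidance genes was not tested. For 144 member regions (12.05%) the nearest protein-coding gene was another gene, among them 53 of the 130 called everywhere.

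The letters of the regions were searched, in 200 bases around the summit and on both strands, for 9 short motifs. CAATAAA, bound by HOX13 proteins, occurred in 3 of the 23 DFL regions (13.04%), against 13.14% of all regions of the DFL class and 4.723% of all consensus regions. It occurred in 3 of the 22 PFL regions (13.64%, against 3.796% of that class). TAATTA, a homeodomain motif, occurred in 45 of the 159 FB regions (28.3%, against 26.13% of all FB regions) and 7 of the 23 DFL regions (30.43% against 20.51%), but in 3 of the 62 limb regions (4.839% against 6.413%).

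CAGATG, an E-box, occurred in 19 of the 62 limb regions (30.65% against 30.45%) and AACAATG, a SOX motif, in 14 of the 159 FB regions (8.805% against 6.115%). TGACAG, bound by MEIS proteins, occurred in 37 of the FB regions (23.27% against 22.73%). GGAATG, a TEAD motif, occurred in 14 of the limb regions (22.58% against 21.85%), and the core of the CTCF motif in 21 of the 130 regions called everywhere (16.15% against 11.7%). Most of these shares lay near those of the class as a whole, but some others were lower in members. TGACAG occurred in 5 of the 62 limb regions (8.065% against 13.48%) and 8 of the 130 regions called everywhere (6.154% against 11.3%). CAGATG occurred in 4 of the 22 PFL regions (18.18% against 31.46%) and 27 of the 159 FB regions (16.98% against 22.25%). Of the other motifs, TCGTAAA occurred in 5 of the 1195 member regions (0.418%, against 0.691% of all consensus regions). GACCACCC occurred in 8 (0.670% against 0.467%). In the sequences printed above, CAGATG is present in Epha3_3, Efna5_1 and Epha7_1 and at 3 places in Unc5c_44, TGACAG is on the other strand in Epha7_1 and Epha3_33, and AACAATG is in Unc5c_7.

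Regions present everywhere could still differ in strength. Of 26926 consensus regions deposited in all 12 libraries, 225 were members, and their log2 fold, centred on the median of each library, was compared with limma, with p-values adjusted over all 26926. Between limb and FB, 66 of 225 were higher in the limb (29.3%, against 21.8% of all) and 37 higher in FB (16.4% against 14.8%). The median difference was 0.07 in members and 0.03 in all regions. The balance turned with the scaling. Without centring, which lowers the median difference of all regions to -0.14, 43 were higher in the limb and 71 in FB, with quantile normalization 51 and 46, and with scaled tag counts recovered from the deposited values 51 and 71 of 203. Under all 4 scalings 31 regions near 22 genes were higher in the limb and 30 near 20 genes higher in FB. Apart from the centred values, these counts stand without the share of all regions. They describe the members alone and do not compare them with the background. Of the 156 regions tested near the other pathway genes, 27 were higher in the limb and 25 in FB.

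Between DFL and PFL, 7 of the 225 were higher in DFL (3.11%, against 3.61% of all) and 5 higher in PFL (2.22% against 2.83%), again near the background. The DFL count fell to 3 without wt DFL replicate 2 and 4 without wt PFL replicate 1. The PFL count fell to 3 without wt DFL replicate 1, wt PFL replicate 1 or 542 PFL replicate 2, and to 2 without wt PFL replicate 2. With recovered tags the member counts were 23 and 10 of 203, given without the share of all regions.

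**Figure D4:**
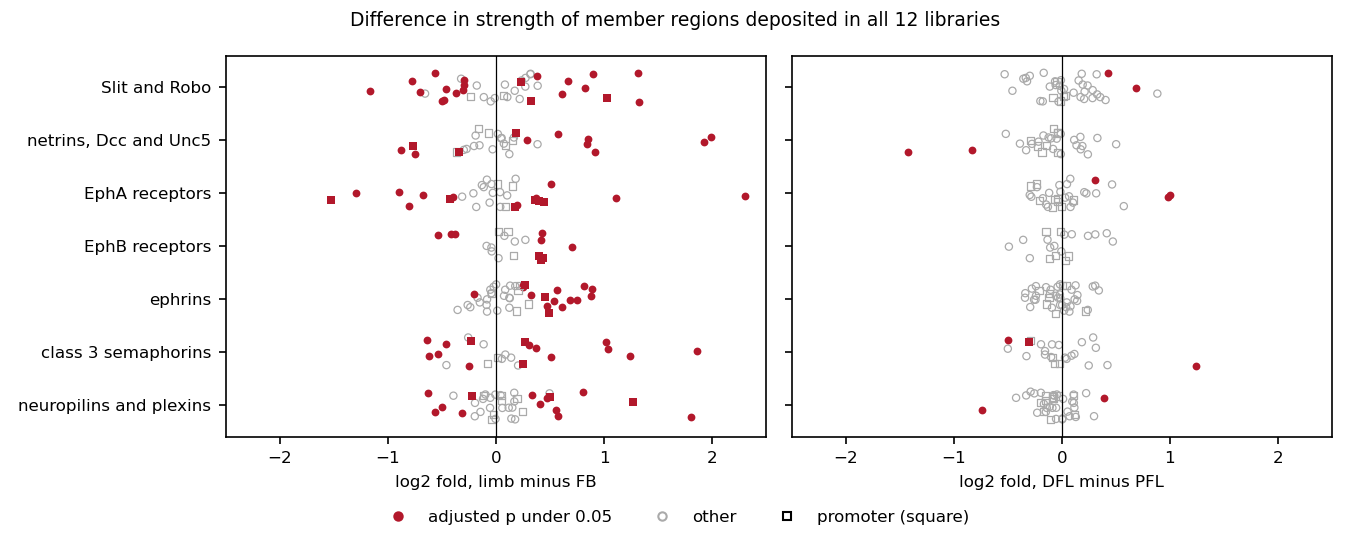
Difference of the centred log2 fold (horizontal axis) for the 225 member regions deposited in all 12 libraries, by family, limb minus FB on the left and DFL minus PFL on the right. Filled red marks have a limma adjusted p under 0.05 and squares are promoters. Ephrin regions have 15 filled marks above 0 and 1 below in the left panel, which without centring become 11 and 8.

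After Sema3d_14, the regions that rose most in DFL were a pair in introns of Epha3. Epha3_20 (chr16:63658228-63659027) had 8.77, 10.1, 9.51 and 11.3 in DFL, 4.02, 4.82, 4.55 and 5.59 in PFL, and 5.88 to 8.46 in FB, a log2 difference of 1.00 between DFL and PFL (SE 0.120, limma adjusted p = 0.00273). Epha3_23 (chr16:63674307-63675171) had 8.37, 7.83, 7.48 and 8.92 in DFL and 5.01, 3.95, 2.83 and 4.26 in PFL, a difference of 0.98 (SE 0.150, limma adjusted p = 0.00665). Its mean fold in FB was 7.96, near the 8.15 of DFL, so like Sema3d_14 it was low in PFL rather than high in DFL alone. With Epha3_3, 3 regions of this gene were stronger in DFL than PFL, and at Epha3_20 and Epha3_23 the lowest DFL library was above the highest PFL library. Slit3_20, in an intron (chr11:35282730-35283756), was 0.69 higher in DFL (SE 0.165, limma adjusted p = 0.0430), a call lost when any of 10 of the 12 libraries was left out. Robo1_49, in an intron (chr16:72685708-72687107), was 0.43 higher (SE 0.0830, limma adjusted p = 0.0186), lost without wt DFL replicate 2, 542 DFL replicate 2, wt PFL replicate 2 or 542 PFL replicate 1.

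The largest excess in PFL was in an intron of Unc5d, a repulsive netrin receptor. Unc5d_23 (chr8:29122223-29123593) had 9.78, 8.73, 11.4 and 10.3 in PFL, 3.81, 6.83, 3.13 and 2.83 in DFL and 3.503 to 4.26 in FB, a log2 difference of -1.42 between DFL and PFL (SE 0.165, limma adjusted p = 0.00242). Unc5c_22 (chr3:141599854-141601859) had 5.95, 7.77, 6.52 and 7.16 in PFL, 3.66, 4.90, 3.503 and 4.15 in DFL and 6.54 to 8.20 in FB, a difference of -0.83 (SE 0.153, limma adjusted p = 0.0151). Its call was lost without wt DFL replicate 1, 542 DFL replicate 1 or wt PFL replicate 2.

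The other 3 regions higher in PFL lay near Plxna2, Sema3a and Sema3c. Plxna2_16 (chr1:194739778-194740373) differed by -0.73 (SE 0.159, limma adjusted p = 0.0290), lost without wt DFL replicate 2, 542 DFL replicate 2, either wt PFL replicate or 542 PFL replicate 2. Sema3a_42 (chr5:13469855-13471325) differed by -0.50 (SE 0.0848, limma adjusted p = 0.0106). Its mean fold was 4.68 in DFL, 6.16 in PFL and 9.28 in FB, so it was highest in FB. Plxna2_16 and Sema3a_42 lie in introns. The Sema3c promoter (chr5:17573695-17575417) had 15.8, 15.9, 15.5 and 14.5 in PFL and 13.5, 12.52, 12.6 and 13.8 in DFL, a difference of -0.30 (SE 0.0691, limma adjusted p = 0.0364) that lost its call without centring (-0.24) and when any of 10 of the 12 libraries was left out. It was the only 1 of 46 member promoters tested that was called between the limb segments.

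In the limb, the largest excess after Epha7_1 was in introns of Unc5c, Sema3a and Plxna1. Unc5c_7, printed above, differed by 1.98 (SE 0.128, limma adjusted p = 7.57e-06). Unc5c_38 (chr3:141811127-141811762) had 8.35, 15.1, 7.74 and 8.87 in DFL, 9.50 to 12.2 in PFL and 2.26 to 3.95 in FB, a difference of 1.92 (SE 0.161, limma adjusted p = 2.99e-05). Plxna1_6 (chr6:89344673-89345752) had 15.6, 15.5, 14.4 and 15.7 in DFL, 12.48 to 13.99 in PFL and 3.64 to 5.94 in FB, a difference of 1.80 (SE 0.0684, limma adjusted p = 1.55e-06). This plexin had fewer called regions in the limb than in FB on average, so its strongest limb region goes against its count. Sema3a_48 (chr5:13526466-13527744) had 6.0 to 9.33 in the limb and 2.30 to 2.92 in FB, a difference of 1.86 (SE 0.114, limma adjusted p = 5.78e-06). All 4 and Epha7_1 were called in the same direction under each of the 4 scalings.

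In FB, the largest excess was at the Epha10 promoter, described next, and then in an intron of Epha3. Epha3_29 (chr16:63752926-63753755) had 11.7, 9.73, 13.5 and 12.0 in FB, 3.37 to 6.42 in DFL and 3.22 to 4.82 in PFL, a difference of -1.29 (SE 0.185, limma adjusted p = 0.000652). Slit3_64 (chr11:35555900-35556734) had 9.84 to 12.2 in FB and 3.20 to 7.04 in the limb, a difference of -1.17 (SE 0.171, limma adjusted p = 0.000750). Epha6_3 (chr16:59617140-59617636), inside Arl6 like Epha6_4, had 12.7 to 17.5 in FB and 6.01 to 7.74 in the limb, a difference of -0.89 (SE 0.0858, limma adjusted p = 6.66e-05). The region in an intron of Unc5a, Unc5a_2 (chr13:54955595-54956610), had 11.1 to 12.99 in FB and 4.15 to 8.29 in the limb, a difference of -0.88 (SE 0.0767, limma adjusted p = 3.72e-05). These held under each of the 4 scalings too.

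For 41 of the 48 guidance genes the promoter region was called in all 12 libraries, as it was for 83.8% of the 14041 protein-coding genes with a region at a start, so the guidance genes were near the background. The 7 others were Ntn4, Unc5a and Epha2 (called in 11 libraries each), Epha10 (9), Ntn1 (8), Epha8 (4) and Slit1 (1). Slit1 stood apart in that its promoter was among the 50000 strongest in 1 FB library only, while all its regions together numbered 12 to 17 in FB. At any rank the Slit1 promoter was deposited in 4 DFL, 3 PFL and 4 FB libraries. Its mean fold was 3.51 in DFL, 4.13 in PFL and 3.03 in FB, so it was not stronger in FB by fold.

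Of the 46 promoters tested, 16 were higher in the limb and 6 in FB. Of the 12671 protein-coding genes whose promoter was tested, 2025 (16.0%) were higher in the limb and 898 (7.09%) in FB. Without centring 7 of the 46 were higher in the limb and 13 in FB, against 773 (6.10%) and 4077 (32.2%) of all genes. The member share was above that of all genes in the limb under both scalings, and in FB only with centring. The balance between limb and FB turned with the scaling in the guidance genes and in all genes. Recovered tags gave a value for 37 of the 46. Under all 4 scalings 5 of these were higher in the limb (Slit3, Epha1, Ephb4, Efna4 and Plxnd1) and 4 in FB (Ntn1, Dcc, Epha10 and Plxnc1). The Epha10 promoter (chr4:124881229-124882576) had 18.7, 16.0, 13.6 and 16.5 in FB, 5.13, 4.55, 5.16 and 4.91 in DFL and 4.50, 5.13, 6.73 and 3.79 in PFL. Every FB library was above every limb library, and the log2 difference was -1.53 (SE 0.128, limma adjusted p = 2.99e-05). This EphA receptor had no region of a tissue class, although it had more called regions in every FB library than in every limb library. Of its 4 regions tested for strength, 2 were higher in FB, the promoter among them, and 1 in the limb.

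The Slit3 promoter differed most the other way, with a mean fold of 8.26 ± 0.969 in the limb (SD, n = 8) and 4.57 ± 0.287 in FB (SD, n = 4), a log2 difference of 1.02 (SE 0.0945, limma adjusted p = 5.26e-05). The promoter of Ntn1, the main netrin, had 4.53 ± 0.684 in the limb and 8.69 ± 0.852 in FB, a difference of -0.77 (SE 0.118, limma adjusted p = 0.000963). The Ntn1 gene thus differed at its promoter although its counts of regions were equal on average. The Dcc promoter had 5.63 ± 0.965 and 7.97 ± 0.425, a difference of -0.34 (SE 0.103, limma adjusted p = 0.0284).

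The Plxnd1, Efna4, Epha1 and Ephb4 promoters were higher in the limb by 0.50, 0.49, 0.44 and 0.44 on the log2 scale, with limma adjusted p-values from 0.000244 to 0.00274, and the Plxnc1 promoter higher in FB by 0.22 (SE 0.0754, limma adjusted p = 0.0495). The Epha3 promoter was higher in FB, at 16.3 ± 0.671 against 10.7 ± 0.815 (a difference of -0.43, SE 0.0677, limma adjusted p = 0.00118), called under the 3 scalings that gave a value and not tested with recovered tags.

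**Figure D5:**
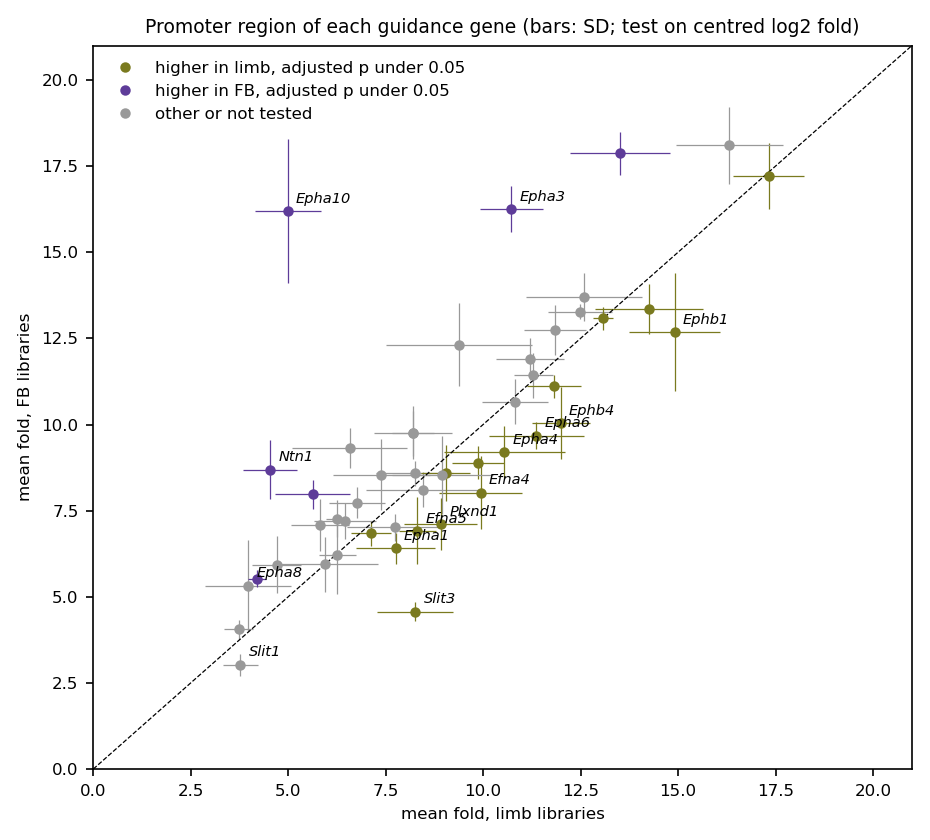
Mean deposited fold of the promoter region of each guidance gene in the 8 limb libraries (horizontal axis) and the 4 FB libraries (vertical axis), with SD bars and a dashed line of equality. Colour gives the limma call on the centred log2 fold, so some points near the line are called. Epha10 lies at 4.99 and 16.2, far above the line, and Slit3 at 8.26 and 4.57, below it.

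Few member regions differed between wt and 542 embryos. No member region was called in all 6 wt and no 542 library, against 0.0116% of all regions, and none in all 6 542 and no wt library, against 0.0143%. The difference of the mean number of regions per gene, 542 minus wt, ranged from -2.67 (Slit3) to 2.33 (Epha5) with a median of 0.167, and in no gene were the genotypes apart in the same direction in all 3 tissues. In strength, 1 of the 225 shared regions was higher in 542 (0.444%, against 0.0928% of all) and 0 were higher in wt (against 0.10%) by limma, and 20 and 9 had an unadjusted p under 0.05. With recovered tags, limma called 3 higher in wt.

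The 1 region was Ntn4_1 (chr10:93593955-93594538), upstream of the netrin gene Ntn4 (-46.5 kb from its start) and nearest to the gene Snrpf. It had 4.71, 4.64, 6.15 and 6.47 in DFL, 4.70, 3.69, 5.19 and 4.76 in PFL, against 4.75, 5.61, 7.65 and 8.58 in FB. Both 542 libraries were above both wt libraries in each tissue, and the log2 difference was 0.52 (SE 0.0767, limma adjusted p = 0.0465). The call was lost when any 1 of the 12 libraries was left out (differences 0.47 to 0.57), without centring, with the replicate block and with the earlier library. The DFL to PFL difference did not differ between genotypes at any member region by limma (0 of 225 after adjustment, 15 at an unadjusted p under 0.05).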

How the data were processed

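ATAC-seq regions of 13 mouse libraries were used, 12 of them in 6 groups of 2. The authors trimmed reads with cutadapt, mapped them with Bowtie 2 (wt on mm10, 542 on the mutant genome), kept confident pairs, removed duplicates with Picard, converted alignments with bedtools and called peaks with MACS2 in each library alone, without a control or pooling. The deposited fold is the ratio of tags at the summit to the local background, and the deposited -log10 p and -log10 q test it against that background, with no scaling between libraries. The labels name the tools without versions.

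Here the 50000 regions of highest -log10 q in each library (ties by fold) were merged by overlap, a merged region taking the summit of highest fold, classes were read from presence and absence, and log2 fold of regions present in all 12 was centred on each library's median and tested with limma 3.58.1 (R 4.3.3, two-sided, Benjamini-Hochberg, threshold 0.05) on 6 group means. Counting used Python 3.11.15 and pandas 2.3.3. Chromosome 2 was used up to 75 Mb, before the inserted transgene, which left out 1 of 31 other pathway genes and 3 marker genes (1 proximal limb, 1 forebrain, 1 blood). Tags were recovered from fold and p-values for 94.6 to 98.8% of regions within a tolerance of 0.001. This gave the depths, which are estimates, and no interval rests on them. The fold has no replicate error of its own, so precision came from 2 libraries a group. P-values measure the spread between these pools.

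Named were, for each class, the 5 genes with most regions and the 5 regions of highest mean fold, for each test the 5 largest differences each way, regions parting the genotypes, and promoters. The members and lists were chosen with earlier results of these data known. Alternatives were the number of regions kept, the merging and distance rules, the scaling, the replicate block, the earlier library and leaving out each library. Same-numbered libraries did not deviate together (15 pairs, correlations -0.037 to 0.015), so numbers were not treated as pairs. On simulated data for DFL against PFL over 26926 regions, 39% of changes of 0.5 and 81% of changes of 1 (log2) were recovered, with 4.76% false calls.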

Additional observations from a re-analysis of the deposited data

Results flagged for a closer look

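In 9 of 221 sets of 4 libraries of a tissue, 1 library stood apart from the other 3 in the fold of a named region, and chance alone sets about 1 in 20 apart. In DFL, wt replicate 2 had 15.1 at Unc5c_38, in an intron of this netrin receptor gene, with 8.87 next. The other DFL cases were low, with 6 at the Sema3a intron region Sema3a_48 (next 8.31), 14.4 at the Plxna1 intron region Plxna1_6 (next 15.5), 2.95 at the Slit1 promoter (next 3.66) and 7.52 at the Efna5 promoter (next 8.35).

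In PFL the Sema3e promoter had 6.69 in its lowest library (next 8.39), and the Nrp1 promoter 4.51 in its highest (next 3.70). In FB the Dcc intron region Dcc_13 had 17.0 in wt replicate 1 (next 14.4), and Sema3a_48 had 2.92 in wt replicate 1 (next 2.37). Each of these libraries stayed on its tissue's side of the difference between limb and FB at Unc5c_38, Plxna1_6, Sema3a_48 and Dcc_13.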

How the results depend on the processing

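With all deposited regions in place of the 50000 strongest, the classes held 46 (DFL), 38 (PFL), 131 (limb), 243 (FB) and 227 (all 12 libraries) regions, and no gene (0) had more in every PFL library. With the 20000 strongest they held 7, 8, 19, 50 and 64, 1 gene had more in DFL and 9 had more in FB. These 2 settings change how many regions enter. The counts here and below are of members alone, without the share of all regions or genes at the same setting. They show how far the member counts moved, and not whether the FB excess over the background held. At a -log10 q of at least 10, 0 genes had more in PFL and 0 more in the limb. Regions called everywhere numbered 80 within 10 kb of the gene body and 77 where the nearest protein-coding gene was a member, where 4 genes had more in DFL, 5 more in the limb and 0 regions were stronger in 542. With the earlier wt DFL library 1 gene had more in DFL and 0 regions were stronger in 542.

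For strength, recovered tags gave 23 higher in DFL, 10 in PFL, 71 in FB and 3 in wt. Only regions among the 50000 strongest of all 12 libraries gave 2 higher in DFL, 1 in PFL, 39 in the limb and 18 in FB. No centring gave 43 higher in the limb, 71 in FB and 0 in 542. The cause of these scaling differences was not tested. With the replicate block, the counts were 5 higher in DFL, 5 in PFL, 65 in the limb, 37 in FB, 0 in 542 (1 without the block) and 0 in wt, and the calls of Slit3_20, the Sema3c promoter and Ntn4_1 were lost. No same-numbered pair had a correlation over 0.1.

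Leaving out each library in turn gave 2 to 5 genes with more regions in DFL and 1 to 3 in PFL, and regions numbering 3 to 7 higher in DFL, 2 to 6 in PFL and 0 to 0 in 542. In all, 34 of 130 counts under another setting and 24 of 204 with a library left out moved by over 1.5 times. No named region changed direction in any alternative, and 6 of 126 lost their call, or 44 of 252 with a library left out. Depth limits the weakest regions, whose absence from a list says only that they were under its rank.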

Other observations

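The member regions also differed in shape and base composition between classes. Regions called in all 12 libraries had a median width of 1104.5 bp and a median GC content of 62.75%, those of the limb class 969.5 bp and 45.75%, those of the FB class 767 bp and 46%, those of the DFL class 849 bp and 44.5% and those of the PFL class 757 bp and 41.75%. Over all regions of the same classes the median GC content was 61.5% (all 12 libraries), 47.5% (limb), 46% (FB), 45% (DFL) and 45.5% (PFL), so the PFL members lay furthest under their class.

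Endothelial markers had 20 to 22 regions in DFL, 21 to 25 in PFL and 20 to 23 in FB, and markers of neural crest and glia had 6 to 7, 6 to 8 and 7 to 10. Ectoderm markers had 7 to 12, 6 to 11 and 8 to 10 regions. Limb mesenchyme markers had 26 to 32 in DFL, 24 to 29 in PFL and 13 to 18 in FB.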
